A study of Mus musculus with 7 samples.

Results

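The genes described here are 10 genes of the Notch pathway, taken by name from the 35727 genes of a count table: the receptors Notch1, Notch2 and Notch3, the ligands Jag1, Jag2 and Dll1, and the target genes Hes1, Hey1, Hey2 and Heyl. All 10 were found in the table, and 9 passed the low-count filter. Hey2 did not. The libraries were polyA RNA-seq of mouse cells from undifferentiated pleomorphic sarcoma, a soft-tissue tumour with no clear line of differentiation, sorted from tumours by red fluorescent protein (RFP). Both models carried the p53 knockout: mesenchymal stem cells of female C57/Bl6 p53KO mice were transduced with retrovirus to overexpress either Ccne1, which encodes cyclin E1, or Vgll3, a cofactor of TEAD transcription factors. Each line was passaged under the skin of female wild-type C57/Bl6 mice, re-harvested and transplanted again. There were 4 libraries labelled p53 KO Ccne1 OE and 3 labelled p53 KO Vgll3 OE. Each model is 1 tumour cell line, so the transduced gene and other differences between the 2 lines cannot be told apart. Ages are not given, and the labels do not state that libraries came from separate tumours or animals, so p-values reflect only how much these libraries vary, and that variation may be technical.

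Notch signalling passes between touching cells. A Jagged or Delta-like ligand on one cell pulls on a Notch receptor on its neighbour, the receptor is cut by an ADAM protease and then by gamma-secretase, and its intracellular part enters the nucleus. There it joins the DNA-binding protein RBPJ and a Mastermind coactivator to switch on genes of the Hes and Hey families, which encode basic helix-loop-helix repressors. In mesenchyme the pathway is known for holding back differentiation, for keeping muscle satellite cells quiescent, and for building the walls of blood vessels.

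Library totals lay between 21725890 and 53610300 counts. Levels are in CPM (counts relative to library size, scaled by TMM so that libraries compare) as mean ± SD, for the Ccne1-labelled (n = 4) and then the Vgll3-labelled libraries (n = 3). Vgll3 itself was 50.7 ± 8.57 and 252 ± 34.6 CPM. Ccne1 was 12.7 ± 5.61 and 14.9 ± 2.16 CPM, so the counts of the mouse gene were not higher in its own model. Whether transcripts of the transduced copy are counted under this gene is not given. Groups are therefore named by their labels. Vgll3 replicate 3 correlated less well with Vgll3 replicates 1 and 2 (r across genes 0.959 and 0.963) than the other pairs within a group did (0.980 to 0.988). Of 6 mesenchymal markers used to check the labelled cell type, 3 rose (Col1a1, 4513 ± 736 to 13398 ± 1777 CPM; Pdgfrb, 188 ± 25.4 to 825 ± 275 CPM; Eng, 9.20 ± 2.64 to 15.8 ± 2.34 CPM) and 2 fell (Vim, 13973 ± 1413 to 4375 ± 238 CPM; Pdgfra, 919 ± 60.1 to 226 ± 46.1 CPM). The last, Thy1, was low, at 0.378 to 9.42 CPM over the 7 libraries. Of all genes tested by edgeR, 25.1% rose and 26.8% fell at an adjusted p under 0.05. In sorted bulk samples, fewer cells of a type and less RNA per cell cannot be told apart.

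Of the 9 members tested, 6 were higher in the Vgll3-labelled libraries at an edgeR adjusted p of 0.05: Notch1, Notch3, Jag1, Hes1, Hey1 and Heyl. Across all 13740 genes tested, 51.9% were called: 25.1% had the higher level with Vgll3 and 26.8% with Ccne1. Heyl passed the low-count filter only through its Vgll3-labelled libraries, so its call could go in no other direction. Setting Heyl aside, 5 of 8 members were called higher and 4 of 8 were both called and at least 2-fold higher, beside 9.2% of all genes tested for the latter. No member was higher in the Ccne1-labelled libraries by edgeR, at an unadjusted p under 0.05 (0 members), or with DESeq2 (0) or limma-voom (0). The members' median log2 fold change, Vgll3-labelled over Ccne1-labelled, was 1.33 (1.07 without Heyl), beside 0.0060 over all genes tested. The members were chosen with earlier results of these data known, so these counts describe them and test nothing.

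**Figure D1:**
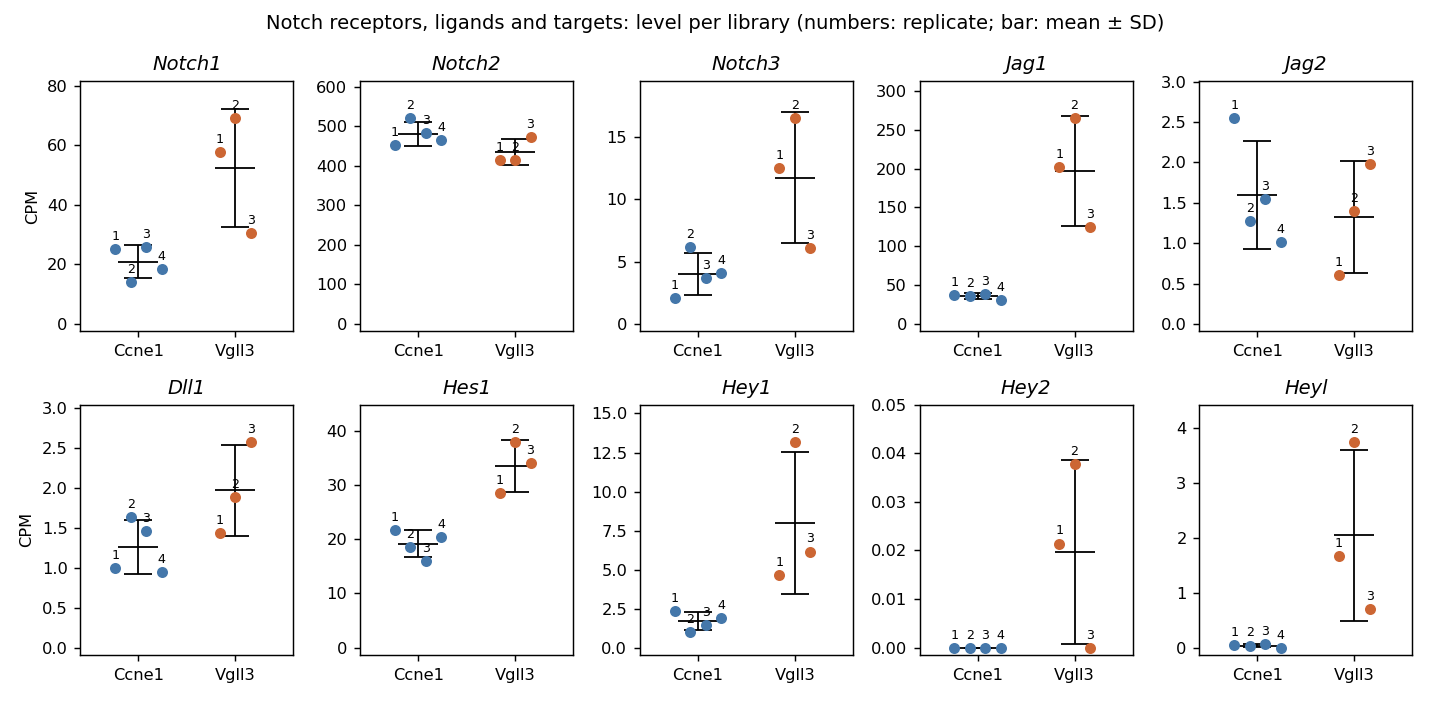
Level of each of the 10 Notch genes in CPM (y axis, linear, own scale per panel) in the Ccne1-labelled (blue) and Vgll3-labelled (orange) libraries, with replicate numbers beside the points and black bars for mean ± SD. Notch1, Jag1, Hes1, Hey1 and Heyl do not overlap between the groups, Notch2 stays between 414 and 521 CPM, and Hey2 is at 0 in 5 of 7 libraries.

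Notch2 was the most abundant receptor and its difference between the models did not pass the test. Notch2 (ENSMUSG00000027878, mm10 chromosome 3, 98013527 to 98150361, protein-coding) was 453, 521, 483 and 465 CPM in Ccne1-labelled replicates 1 to 4 and 414, 416 and 472 CPM in Vgll3-labelled replicates 1 to 3. The groups overlapped only through Vgll3 replicate 3. The log2 fold change was −0.15 (SE 0.08, edgeR adjusted p = 0.166; exact permutation p = 0.143), with a 95% interval from −0.34 to 0.04, which reaches a level 1.26-fold higher in the Ccne1-labelled libraries. Without Vgll3 replicate 3 the log2 fold change was −0.20 with an edgeR adjusted p = 0.0498, which passes the threshold.

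Notch1, the receptor best known from T-cell and vascular development, was higher in the Vgll3-labelled libraries. Notch1 (ENSMUSG00000026923, chromosome 2, 26457903 to 26516663, protein-coding) was 25.1, 14.2, 25.8 and 18.6 CPM in the Ccne1-labelled and 57.7, 69.1 and 30.5 CPM in the Vgll3-labelled libraries. All 3 Vgll3-labelled values lay above the highest Ccne1-labelled one, with replicate 3 closest to it. In all, 5 of the 9 members had non-overlapping groups with the Vgll3-labelled libraries higher (4 of 8 without Heyl) and 0 with the Ccne1-labelled libraries higher. Among all genes tested these shares were 26.8% and 29.0%. The log2 fold change was 1.33 (SE 0.32, edgeR adjusted p = 0.0118). Without a low-count filter the edgeR adjusted p was 0.0511 at the same log2 fold change, which ends the call.

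Notch3, a receptor known from the smooth muscle and pericytes of vessel walls and from satellite cells, was also higher in the Vgll3-labelled libraries, with a margin that 1 library could end. Notch3 (ENSMUSG00000038146, chromosome 17, 32120820 to 32166852, protein-coding) was 2.09, 6.16, 3.68 and 4.07 CPM in the Ccne1-labelled and 12.5, 16.5 and 6.12 CPM in the Vgll3-labelled libraries. Vgll3 replicate 3 and Ccne1 replicate 2 had nearly equal levels, so the groups overlapped by a margin of under 0.1 CPM. The log2 fold change was 1.53 (SE 0.41, edgeR adjusted p = 0.0168), while the exact permutation p was 0.0857. Leaving out Vgll3 replicate 2 ended the call, at a log2 fold change of 1.20 and an edgeR adjusted p = 0.0587. So did testing without a low-count filter (edgeR adjusted p = 0.0530). Long noncoding genes on the opposite strand overlap Notch1 (0610009E02Rik and Gm13568), Notch3 (Gm17276) and Dll1 (A930024N18Rik). None of them has a row in the table, and whether the counting used strand is not given, so reads from such pairs cannot be told apart.

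Jag1 was the ligand with the clearest difference. It encodes Jagged1, a ligand of the Serrate family that acts in vessel wall and skeletal development. Jag1 (ENSMUSG00000027276, chromosome 2, 137081456 to 137116644, protein-coding) was 37.8, 35.5, 38.4 and 30.2 CPM in the Ccne1-labelled and 202, 265 and 124 CPM in the Vgll3-labelled libraries. The lowest Vgll3-labelled library, replicate 3, was above 3 times the highest Ccne1-labelled one. The fitted fold was 5.55 (95% interval 3.76 to 8.20), a log2 fold change of 2.47 with SE 0.24 and edgeR adjusted p = 0.000157. The exact permutation p was 0.0286, the smallest that the 35 splits of 7 libraries into 4 and 3 can give. The call held in all 13 alternatives run, with log2 fold changes from 2.19 to 2.72.

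The other ligands of the set had few counts, and neither passed the test. Jag2 (ENSMUSG00000002799, chromosome 12, 112907819 to 112929776, protein-coding), the second Jagged ligand, was 2.55, 1.27, 1.55 and 1.02 CPM in the Ccne1-labelled and 0.600, 1.40 and 1.97 CPM in the Vgll3-labelled libraries, from 28 to 66 counts each. The groups overlapped over most of their range. Its log2 fold change of −0.27 had a 95% interval from −1.35 to 0.80 (edgeR adjusted p = 0.656), and its sign turned when Ccne1 replicate 1 (0.04) or Vgll3 replicate 1 (0.09) was left out. Dll1 (ENSMUSG00000014773, chromosome 17, 15367354 to 15376872, protein-coding), a Delta-like ligand of myogenic and somite cells, was 1.00, 1.64, 1.46 and 0.945 CPM in the Ccne1-labelled and 1.44, 1.89 and 2.58 CPM in the Vgll3-labelled libraries, from 22 to 85 counts each. Its log2 fold change was 0.63, with a 95% interval from −0.14 to 1.39 (edgeR adjusted p = 0.147).

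A set of promoter sequences is shown for a receptor and the ligand that rose and for the target that was barely detected. The windows hold the 250 bases before the RefSeq start (GRCm38.p6), written in the direction of transcription. RefSeq starts can differ from the gene bounds above, as they do for Notch1. Entries were found for 7 of the 10 members; Hes1, Hey1 and Heyl had none. Capitals mark matches, on either strand, to TGGGAA, the core of RBPJ sites, to GGAATG, the core of TEAD sites, or to CACGTG, an E-box that Hey proteins bind. The windows are Notch1 at chr2:26503823-26504072, Jag1 at chr2:137116521-137116770 and Hey2 at chr10:30842784-30843033, all on the minus strand.
Notch1: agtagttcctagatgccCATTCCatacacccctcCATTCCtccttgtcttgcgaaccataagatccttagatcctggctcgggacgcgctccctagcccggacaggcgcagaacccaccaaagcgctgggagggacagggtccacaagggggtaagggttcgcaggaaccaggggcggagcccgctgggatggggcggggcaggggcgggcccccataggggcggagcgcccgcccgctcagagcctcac
Jag1: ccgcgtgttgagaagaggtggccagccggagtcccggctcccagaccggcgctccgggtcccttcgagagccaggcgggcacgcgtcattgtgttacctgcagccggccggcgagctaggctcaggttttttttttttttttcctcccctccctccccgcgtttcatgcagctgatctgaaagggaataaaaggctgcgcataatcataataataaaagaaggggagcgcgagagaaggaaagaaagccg
Hey2: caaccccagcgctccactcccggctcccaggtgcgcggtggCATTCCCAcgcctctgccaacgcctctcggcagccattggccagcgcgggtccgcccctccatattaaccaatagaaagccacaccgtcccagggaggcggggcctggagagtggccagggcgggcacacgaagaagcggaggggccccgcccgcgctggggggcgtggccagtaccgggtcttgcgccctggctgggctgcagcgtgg
Notch1 had 2 matches to the TEAD core, beginning 233 and 216 bases before the start, and Jag1 had no match to any of the motifs. Hey2 was the member entry with a match to the RBPJ core, 207 bases before the start, and it overlapped a match to the TEAD core at 209 bases. Of 32851 promoter entries, 21.6% hold the RBPJ core, 12.6% the TEAD core and 6.02% the E-box in the same window. The windows of Notch2, Notch3, Jag2 and Dll1 (2 entries) held none of these letters. A match describes the letters and says nothing of whether a factor binds there.

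The target genes Hes1 and Hey1 were higher in the Vgll3-labelled libraries, with non-overlapping groups. So was Heyl, which passed the low-count filter only through those libraries. Hes1 (ENSMUSG00000022528, chromosome 16, 30064384 to 30067796, protein-coding), the repressor that oscillates in many progenitor cells and also answers to other pathways, was 21.8, 18.6, 16.0 and 20.5 CPM in the Ccne1-labelled and 28.6, 38.0 and 34.1 CPM in the Vgll3-labelled libraries. Every Vgll3-labelled library was above every Ccne1-labelled one. The fold was 1.75 (95% interval 1.43 to 2.14), a log2 fold change of 0.81 with SE 0.13 and edgeR adjusted p = 0.00087.

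Hey1 showed a wider fold and a wider spread than Hes1. Hey1 (ENSMUSG00000040289, chromosome 3, 8663359 to 8667256, protein-coding), a repressor of vascular, bone and muscle progenitors, was 2.37, 1.02, 1.42 and 1.93 CPM in the Ccne1-labelled and 4.63, 13.2 and 6.16 CPM in the Vgll3-labelled libraries. Vgll3 replicate 2 was more than 2 times replicates 1 and 3, and all 3 exceeded the Ccne1-labelled libraries. The log2 fold change was 2.26 (SE 0.41, edgeR adjusted p = 0.00202), with a 95% interval of the fold from 2.50 to 9.20. Without Vgll3 replicate 2 it was 1.69 and still called.

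Heyl was almost without counts in one model and low in the other. Heyl (ENSMUSG00000032744, chromosome 4, 123233556 to 123249875, protein-coding), the Hey-family gene known from vascular smooth muscle and satellite cells, had 1, 2, 2 and 0 counts in the Ccne1-labelled and 78, 99 and 21 counts in the Vgll3-labelled libraries. In CPM the latter were 1.67, 3.74 and 0.703, and the former at most 0.0619. The pooled ratio was 51.4, with an exact counting interval from 21.7 to 160 that covers counting error only. The fitted log2 fold change of 5.64 (SE 0.78, edgeR adjusted p = 0.000393) depends on the prior count of the fit and was 4.88 without Vgll3 replicate 2. Hey2 (ENSMUSG00000019789, chromosome 10, 30832359 to 30842801, protein-coding), the Hey gene of arteries and heart, had 1 count each in Vgll3 replicates 1 and 2 and 0 in the other 5 libraries. A count of 0 allows 3 counts, or 0.0577 to 0.136 CPM per library, so Hey2 was not detectable above that level in either model.

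**Figure D2:**
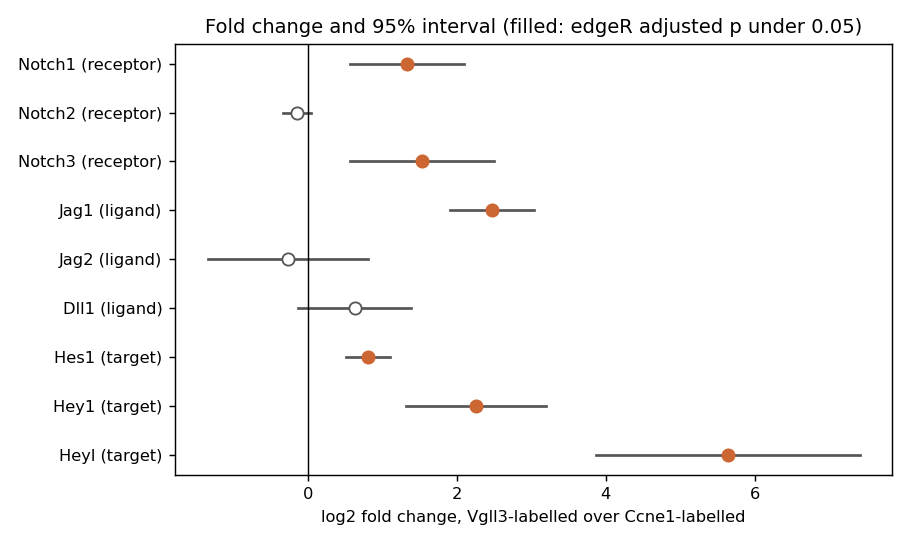
Fitted log2 fold change of the 9 tested Notch genes (x axis, Vgll3-labelled over Ccne1-labelled) with 95% intervals as lines, filled points for an edgeR adjusted p under 0.05. Jag1 at 2.47 and Hes1 at 0.81 have narrow intervals, while Heyl at 5.64 has the widest.

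Among the 3 Vgll3-labelled libraries, replicate 2 had the highest level of all 6 raised members, and replicate 3 the lowest of 4 of them (Notch1, Notch3, Jag1 and Heyl). Of all 3454 genes higher in the Vgll3-labelled libraries, 37.5% were highest in replicate 2 and 46.9% lowest in replicate 3. Hes1 and Hey1 were lowest in replicate 1. These are 3 libraries, so the order is a description.

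To compare genes with each other, CPM was divided by the length of the gene's merged exons in kb. On that scale the order in the Ccne1-labelled libraries began with Notch2 (44.6 ± 2.76 CPM per kb), Hes1 (9.43 ± 1.24), Jag1 (6.09 ± 0.637) and Notch1 (1.47 ± 0.389), with no overlap between these neighbours. From Notch1 down through Notch4, Dll4, Hey1, Notch3, Dll1 and Jag2, each gene overlapped the next over the libraries. In the Vgll3-labelled libraries Notch2 (40.2 ± 3.06 CPM per kb) and Jag1 (33.8 ± 12.1) overlapped, followed by Hes1 (16.5 ± 2.33) and then Notch1 (3.68 ± 1.39), which overlapped Hey1 (2.45 ± 1.40). Jag1 ranked 3 in the Ccne1-labelled and 2 in the Vgll3-labelled libraries.

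Shares of the summed per-length level were taken within receptors (Notch1 to Notch4), canonical ligands (Jag1, Jag2, Dll1, Dll3 and Dll4) and effectors (Hes1, Hey1, Hey2 and Heyl). Notch2 made up 94.0 ± 0.949% of receptors in the Ccne1-labelled and 87.9 ± 4.54% in the Vgll3-labelled libraries. The lowest Ccne1-labelled share, 92.99%, lay just above the highest Vgll3-labelled one, 92.9% in replicate 3. The share of Notch1 was 3.12 ± 0.906% and 8.10 ± 3.16%, and with the longest annotated transcript as length it was 4.48% and 11.4%. Jag1 made up 83.3 ± 4.32% and 96.7 ± 2.61% of canonical ligands, without overlap, so most of the ligand transcript per length was Jag1 in both models. Hes1 made up 94.8 ± 1.28% and 85.9 ± 5.46% of effectors, and Hey1 5.11 ± 1.28% and 12.1 ± 4.49%, again without overlap. Shares have no test here, since they combine the chosen genes.

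**Figure D3:**
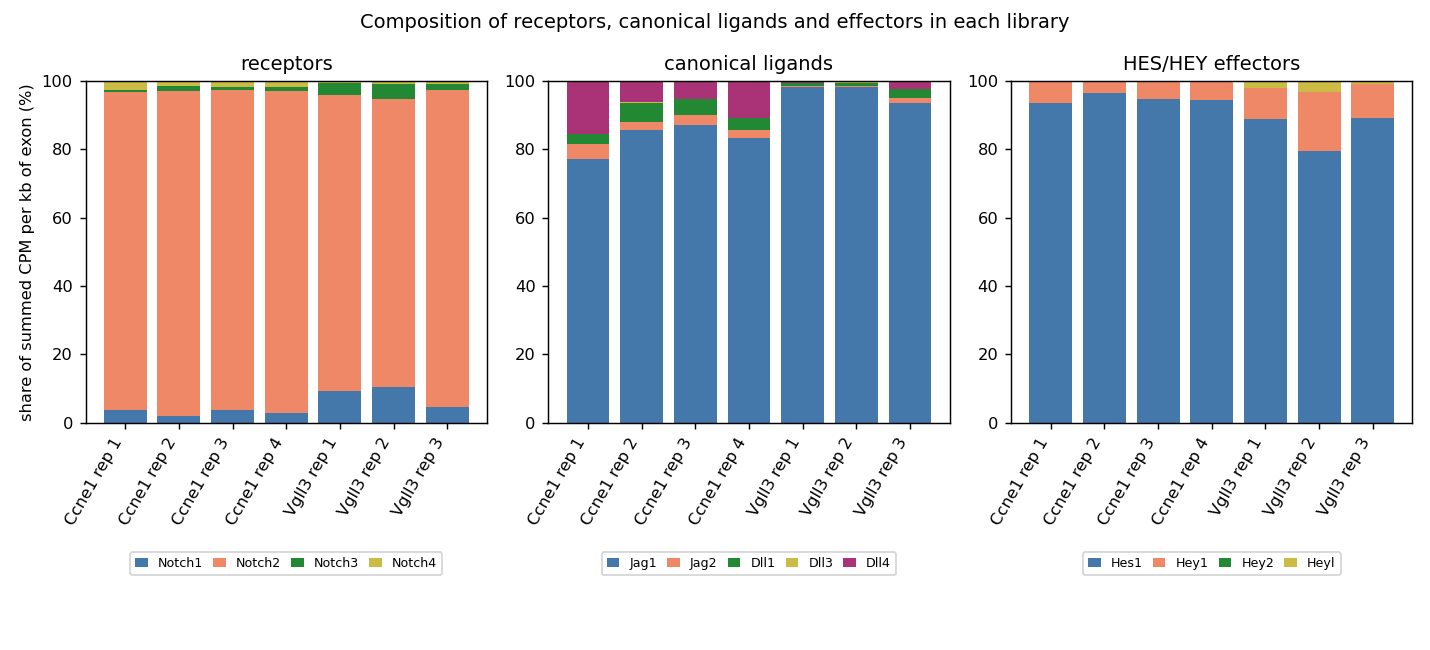
Share of each gene in the summed CPM per kb of exon (y axis, percent) within receptors, canonical ligands and effectors, 1 stacked bar per library. Notch2, Jag1 and Hes1 take most of each bar in all 7 libraries; the Jag1 part runs from 77.3% to 87.2% in the Ccne1-labelled and from 93.7% to 98.3% in the Vgll3-labelled libraries.

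The rest of the pathway moved in both directions. Of 66 other pathway genes listed, 56 were tested, 10 had their higher level with Vgll3 and 17 with Ccne1 by edgeR. The 10 are 17.9% of the 56, beside 25.1% of all genes tested, and the background for the 17 is 26.8%. The median log2 fold change of the 56 was −0.08.

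The fourth receptor went the other way from Notch1 and Notch3. Notch4, an endothelial receptor, was 9.24, 5.56, 6.78 and 6.72 CPM in the Ccne1-labelled and 1.80, 3.48 and 3.61 CPM in the Vgll3-labelled libraries. The groups did not overlap, and Notch4 fell by 1.26 on the log2 scale (SE 0.28, edgeR adjusted p = 0.00492). Dll4, the main ligand of endothelial tip cells, was 2.69 ± 1.61 and 1.12 ± 0.745 CPM with overlapping groups (log2 fold change −1.26, edgeR adjusted p = 0.0889). With 1 library left out that log2 fold change lay between −0.78 (without Ccne1 replicate 1, edgeR adjusted p = 0.231) and −1.95 (without Vgll3 replicate 3, edgeR adjusted p = 0.0194). DESeq2 gave an adjusted p of 0.0408 for all 7 libraries. Dll3, a divergent ligand that does not activate the receptor, had at most 0.0669 CPM in a library.

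Endothelial markers were read beside these genes. Their summed level over 10 markers ranged from 53.4 to 142 CPM in the Ccne1-labelled and from 35.3 to 237 CPM in the Vgll3-labelled libraries, where Pecam1 in replicate 3 gave 184 CPM. No endothelial marker was called by edgeR, at an unadjusted p under 0.05 (0 of 10), or with DESeq2 (0) or limma-voom (0). Of all genes tested, edgeR called 51.9%. Notch4, Dll4 and the endothelial sum were each highest in Ccne1 replicate 1 among the Ccne1-labelled libraries (9.24, 5.005 and 142 CPM) and in Vgll3 replicate 3 among the others (3.61, 1.97 and 237 CPM). The part of endothelial RNA in the values of Notch4 and Dll4 was not tested.

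Of the proteins that bind or modify the receptor, 1 of 5 tested non-canonical ligands and 2 of 6 tested glycosyltransferases were called, each lower with Vgll3. These shares are close to the 26.8% of all genes called in that direction. Dlk2, a membrane protein related to Delta ligands, was 10.5 ± 2.13 and 1.22 ± 0.0199 CPM, a change of −3.10 on the log2 scale (edgeR adjusted p = 1.17e-05). Lfng, the Fringe enzyme that adds sugars to Notch and shifts its preference among ligands, was 5.59 ± 1.07 and 1.38 ± 0.928 CPM, a change of −2.01 on the log2 scale (edgeR adjusted p = 0.00532). Poglut1, which adds glucose to Notch repeats, fell from 63.8 ± 4.19 to 41.0 ± 2.15 CPM (edgeR adjusted p = 0.000187).

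Of 9 tested genes of receptor cleavage, 2 rose and 4 fell, beside 25.1% and 26.8% of all genes tested. Aph1b, a subunit of gamma-secretase, was 3.65 ± 0.514 and 13.8 ± 4.56 CPM, a rise of 1.92 on the log2 scale (edgeR adjusted p = 0.000129). Its close copy Aph1c was below the filter, at 0.0408 ± 0.0178 and 0.663 ± 0.453 CPM, also higher with Vgll3 and without overlap. Reads can be split between the copies, so the level of Aph1b is uncertain. Psen2, the second presenilin, rose from 4.64 ± 0.499 to 8.45 ± 2.29 CPM (edgeR adjusted p = 0.00612). Furin, the convertase that cuts the receptor precursor, fell from 440 ± 18.8 to 279 ± 28.97 CPM (edgeR adjusted p = 0.000297), and Psenen, another gamma-secretase subunit, from 25.4 ± 3.80 to 15.6 ± 1.57 CPM (edgeR adjusted p = 0.00208).

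Rbpj, the DNA-binding partner of all Notch receptors, was 273 ± 32.5 and 274 ± 41.1 CPM (edgeR adjusted p = 0.982), with a 95% interval of the log2 fold change from −0.28 to 0.28. Of 7 tested genes of the nuclear complex, 2 rose and 2 fell, beside 25.1% and 26.8% of all genes tested. The Mastermind coactivators split: Maml2 rose from 33.1 ± 1.98 to 47.0 ± 7.52 CPM (edgeR adjusted p = 0.0044), Maml1 fell from 119 ± 14.0 to 75.2 ± 9.68 CPM (edgeR adjusted p = 0.00131) and Maml3 from 70.4 ± 7.68 to 50.6 ± 8.83 CPM (edgeR adjusted p = 0.0138). Snw1, a cofactor of the complex, rose from 71.3 ± 5.51 to 93.2 ± 11.6 CPM. Of 10 corepressors tested, 3 rose and 1 fell, beside the same shares of all genes. Among them were Ctbp2 (56.7 ± 4.38 and 76.7 ± 7.98 CPM, higher), Tle3 (126 ± 6.62 and 165 ± 3.27 CPM, higher) and Cir1 (25.8 ± 0.840 and 20.7 ± 0.999 CPM, lower).

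Of 12 tested ubiquitin ligases and endocytic regulators, 3 rose and 5 fell, beside 25.1% and 26.8% of all genes tested. Dtx4, a Deltex ligase that acts on Notch, was 13.9 ± 2.41 and 34.5 ± 6.83 CPM, a rise of 1.31 on the log2 scale (edgeR adjusted p = 0.000283). Mib1, the ligase that lets ligand-bearing cells pull on the receptor, rose from 122 ± 8.39 to 183 ± 26.7 CPM (edgeR adjusted p = 0.00163). Neurl1a, a Neuralized ligase, fell from 2.15 ± 0.446 to 0.845 ± 0.321 CPM (edgeR adjusted p = 0.0119), and Dtx2 from 29.3 ± 2.38 to 18.7 ± 1.35 CPM (edgeR adjusted p = 0.000471).

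Other targets and Hes-family genes made a list of 9, of which 5 were tested and 1, Hes6, was called, beside 51.9% of all genes tested. Nrarp, a feedback inhibitor that Notch induces in many tissues, was 3.96, 1.00, 1.83 and 1.67 CPM in the Ccne1-labelled and 2.23, 2.95 and 4.92 CPM in the Vgll3-labelled libraries. The log2 fold change was 0.69 (edgeR adjusted p = 0.246). The groups overlapped. With 1 library left out the log2 fold change lay between 0.32 (without Vgll3 replicate 3, edgeR adjusted p = 0.623) and 1.17 (without Ccne1 replicate 1, edgeR adjusted p = 0.0383). Hes5 had no count in any library, which allows up to 0.136 CPM in the shallowest. Hes6, a Hes-family gene that Notch does not induce in most tissues, was 18.0 ± 0.550 and 14.8 ± 1.55 CPM and was called lower in the Vgll3-labelled libraries (edgeR adjusted p = 0.0362). That call ended on leaving out any library other than Vgll3 replicate 3, at edgeR adjusted p-values from 0.0621 to 0.115. It also ended without scaling (0.0877), without a low-count filter (0.0529) and with DESeq2 (0.0530).

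**Figure D4:**
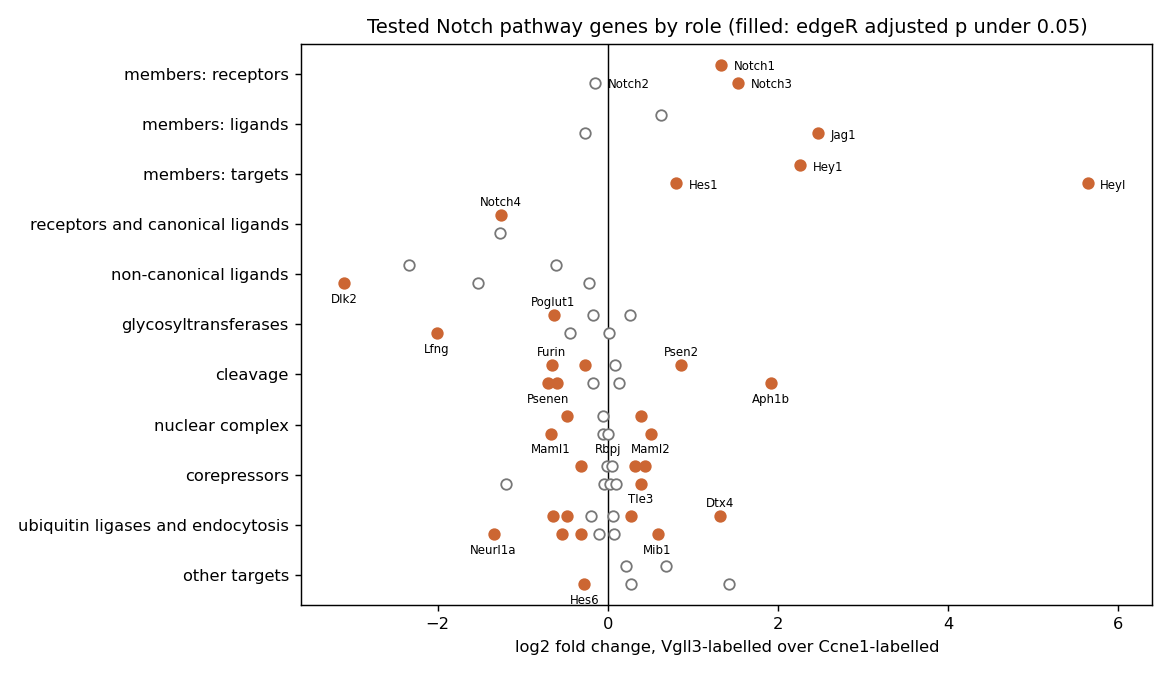
Log2 fold change (x axis, Vgll3-labelled over Ccne1-labelled) of the tested Notch genes and other pathway genes by role (y axis), 1 point per gene, filled for an edgeR adjusted p under 0.05. Of the called genes, Jag1, Hey1 and Heyl lie beyond 2 to the right, and Lfng at −2.01 and Dlk2 at −3.10 lie beyond −2 to the left.

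Markers of cell types in which these genes are well known were read in the same libraries. As background for each list here, edgeR called 25.1% of all genes tested higher with Vgll3 and 26.8% lower. Of 8 satellite cell and myoblast markers, 3 were tested and 2 rose, Cdh15 (0.112 ± 0.111 to 141 ± 79.0 CPM) and Des (0.776 ± 0.196 to 1.58 ± 0.298 CPM). The last tested, Chrna1, was 6.18 ± 0.909 and 5.49 ± 3.74 CPM and was not called. Cdh15 passed the low-count filter only through its Vgll3-labelled libraries, so its call could go in no other direction. The summed level of the 8 ranged from 5.69 to 8.14 and from 70.4 to 221 CPM, the latter mostly from Cdh15. The defining factors Myod1 and Myog had no count in any library, and Pax7 and Myf5 reached at most 0.134 and 0.201 CPM. Of 7 pericyte markers, 6 were tested, Rgs5 rose (0.543 ± 0.328 to 5.95 ± 1.89 CPM) and Cspg4 fell (514 ± 42.4 to 140 ± 10.2 CPM), with sums from 501 to 592 and from 178 to 206 CPM. These sums came mostly from Cspg4, while Mcam, the next most abundant, was 47.6 ± 6.39 and 47.5 ± 2.47 CPM. Kcnj8 was lower without overlap but not called (0.619 ± 0.272 and 0.240 ± 0.0783 CPM, edgeR adjusted p = 0.0628). Abcc9 and Ndufa4l2 overlapped and were not called. Of 6 smooth muscle markers, 5 were tested, 3 rose (Acta2, 74.7 ± 35.1 to 226 ± 59.9 CPM; Smtn, 142 ± 9.39 to 186 ± 17.5 CPM; and Des), and Tagln fell (27.8 ± 4.21 to 12.5 ± 4.97 CPM), with sums from 221 to 308 and from 365 to 479 CPM, while Myh11 reached at most 0.346 CPM. Of 10 macrophage markers, 6 were tested and Cd14 alone was called, lower (59.4 ± 7.89 to 6.39 ± 1.85 CPM), with sums from 59.8 to 79.6 and from 11.6 to 21.4 CPM. The sums of the Ccne1-labelled libraries came mostly from Cd14. The next most abundant, Cd68 (5.03 ± 1.55 and 3.96 ± 2.49 CPM) and Lyz2 (2.72 ± 2.35 and 2.40 ± 1.20 CPM), were not called. Sums of 6 T cell markers ranged from 1.67 to 3.37 and from 2.01 to 4.62 CPM, and 0 of the 2 tested were called by edgeR. Trac was lower without overlap (1.66 ± 0.258 and 0.861 ± 0.357 CPM, edgeR adjusted p = 0.0600). Ptprc was 0.892 ± 0.574 and 1.84 ± 1.05 CPM, with overlap (edgeR adjusted p = 0.252). DESeq2 and limma-voom each called 1 T cell marker lower with Vgll3. Of 8 genes of the response to tissue dissociation, 3 rose: Egr1 (183 ± 12.3 to 1376 ± 53.2 CPM), Ier2 (254 ± 23.5 to 479 ± 21.7 CPM) and Jun (3346 ± 398 to 5180 ± 920 CPM). Atf3 (277 ± 37.1 to 174 ± 40.5 CPM) and Dusp1 (740.2 ± 62.3 to 366 ± 116 CPM) fell. The part of these cells or responses in the differences of Jag1, Notch1, Notch3, Hes1, Hey1 and Heyl was not tested.

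The chromosomal surroundings of the 6 raised members were shifted less than the members or the other way. Within 5 Mb of Jag1 the median log2 fold change of 26 tested genes was −0.04, and within 5 Mb of Hey1 that of 19 genes was −0.0029. Around Notch1 (134 genes) it was −0.16, around Notch3 (195 genes) −0.32 and around Hes1 (53 genes) −0.37. Heyl lies on chromosome 4, where the median of 828 tested genes was 0.44, and the median of the 87 within 5 Mb was 0.43, with 48 of them called higher. With a window of 1 Mb that median was 0.17 over 15 genes. Around Notch2 (106 genes) the median was −0.14, close to its own −0.15. The 1 Mb window turned the sign for Jag1 (−0.04 to 0.15 over 5 genes) and Notch2 (to 0.49 over 11 genes). It also did so for Jag2 (0.14 to −0.14) and Hey2 (0.21 to −0.10). For Hes1 it gave −0.61.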

How the data were processed

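The authors deposited a table of estimated counts, unscaled, with Ensembl genes as rows and libraries as columns. Per the submitters' processing notes they used Salmon and mouse build mm10. The Salmon version, annotation and strand setting were not given in the sources used here. All values were whole, so rounding changed none. Of 35727 genes, 35422 had a symbol in a separate reference of gene names. GENCODE M21 (GRCm38) gave coordinates (1-based) and exon lengths for 35493.

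The members and lists were chosen with earlier results of these data known. All genes were fitted together in edgeR 4.0.16 (R 4.3.3): filterByExpr, TMM, a robust quasi-likelihood F test of model alone, Benjamini-Hochberg adjustment over 13740 genes, threshold 0.05. SE is the absolute log2 fold change over the square root of F. Exact permutation tests were two-sided, on mean log2(CPM + 0.1). Alternatives were DESeq2 1.42.0, limma-voom (limma 3.58.1), DESeq2 size factors, no scaling, no filter, leaving out each library and a replicate block. A count of 3, taken as what a 0 allows, stood for 0.0577 to 0.136 CPM, covering counting error only. The fit was tested on simulated counts. All 10 members were named. Of other pathway genes, the text named up to 2 called genes per role and direction with the largest change that reached 1 CPM, plus Rbpj, Notch4, Dll3, Dll4, Nrarp and Hes5; of marker lists, the most abundant member, and called or defining markers given beside a result. Libraries of a group differed by more than counting noise (smallest chi-square 12.4 per degree of freedom), and none was counted as a duplicate.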

Additional observations from a re-analysis of the deposited data

How the results depend on the processing

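Of the 9 tested members, 6 were called higher in the Vgll3-labelled libraries, and this count lay between 4 and 6 over 13 alternatives, with 4 reached without a low-count filter, where Notch1 and Notch3 missed the threshold. Setting Heyl aside, 5 of 8 members were called higher in the main fit. Jag1, Hes1 and Hey1 were called in every alternative run. So was Heyl, but with the low-count filter its call could go in no other direction. Leaving out 1 library gave 5 to 6 members higher in the Vgll3-labelled and 0 to 1 higher in the Ccne1-labelled libraries, the 1 being Notch2 without Vgll3 replicate 3. Jag2 ranged from −0.69 to 0.086 in log2 fold change, turning sign without Ccne1 replicate 1 (0.04) or Vgll3 replicate 1 (0.086). Rbpj, not called, was −0.0026 without a low-count filter and between −0.13 and 0.067 with 1 library left out.

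With the replicate block (6 libraries), 4845 genes were called instead of 7133, 5 members stayed higher in the Vgll3-labelled libraries, Notch1 lost its call (log2 fold change 1.24, edgeR adjusted p = 0.114), and 11 other pathway genes were higher in the Ccne1-labelled libraries. Cir1, Maml3, Neurl1a, Snw1 and Hes6 also lost their calls. Deviations of same-numbered libraries correlated at −0.15, −0.17 and −0.10, and no library correlated best with its own number. Each of these was the lowest correlation of that Ccne1-labelled library with any Vgll3-labelled one. Whether same-numbered libraries share a batch is not given and was not tested. Scaling moved the median of all genes to at most 0.03. Low counts limit Jag2, Dll1, Hey2 and Heyl. The cause of these changes was not tested.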

Other observations

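Some of the listed pathway genes, chosen after their values were seen, varied widely between libraries of a group. Il2ra, the interleukin-2 receptor chain that Notch induces in lymphocytes, was 10.9 CPM in Vgll3 replicate 3 and between 1.24 and 2.00 CPM in the other 6 libraries. Ccn3, a secreted protein that can bind Notch1, was 5.005 CPM in Ccne1 replicate 1 and at most 1.11 CPM elsewhere. Mfap5, a microfibril protein that binds Notch1 and Jagged1, was 8.51, 5.68, 3.44 and 1.24 CPM in the Ccne1-labelled and 1.95, 0.151 and 0.569 CPM in the Vgll3-labelled libraries (edgeR adjusted p = 0.0651).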
